A study of Arabidopsis thaliana with 9 samples.

Results

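The loci described here were silent in wild-type Arabidopsis thaliana leaves, transcribed in leaves of ddm1 mutants, and transcribed in the F1 of a cross between the 2 at a level near or above that of the mean of the parents. They were nuclear loci with an estimated count of 0 in all 3 Col-0 libraries and of 10 or more in each of 3 ddm1 libraries. Their mean TPM in F1 libraries was 0.4 or more times their mean TPM in ddm1 libraries. TPM is the abundance of a transcript after scaling by its length, out of a fixed total per library. The rule found 259 loci, after 3 others that met the thresholds were left out by name, among 917 wild-type-silent loci and 33323 nuclear loci in all. The other 658 wild-type-silent loci met the count thresholds but had a lower F1 to ddm1 ratio. Because the counts and TPM values of all 3 groups chose these loci, their levels in the groups are given as a description and without a test.

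The groups were F1 plants labelled DDM1/ddm1 from Col-0 X ddm1, homozygous ddm1 plants of the 2nd generation, and wild-type Col-0 plants, each with 3 libraries from biological replicates. Leaves came from plants 4 to 5 weeks old, ribosomal RNA was removed, and strand-preserving libraries gave reads of 50 bp from 1 end of each fragment. The sources used here do not give the ddm1 allele, the direction of the cross or the relation of the F1 plants' ddm1 parent to the sequenced ddm1 plants.

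DDM1 is a chromatin remodelling ATPase that lets DNA methyltransferases reach nucleosome-covered heterochromatin. In plants without it, DNA methylation of transposons falls and many of them are transcribed. An F1 of a mutant and a wild-type plant carries a functional DDM1 copy, but chromosome stretches that come from the mutant parent can keep their reduced methylation after the cross. RNA levels alone do not show which parental copy of a locus was read. With a Col-0 level of 0, the mean of the parents corresponds to a ratio of 0.5 to ddm1.

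Library totals were 19437646, 20457703 and 20768385 estimated counts in F1, 22425699, 17383909 and 15996806 in ddm1, and 19788015, 19054166 and 21542447 in Col-0. Organelle loci took 70.6% to 72.8% of them in F1, 66.2% to 67.9% in ddm1 and 64.7% to 68.9% in Col-0. The DDM1 transcript had 2, 0 and 8 counts in F1, 1, 2 and 2 in ddm1, and 3, 12 and 5 in Col-0, too few to check the genotypes. The 5 leaf markers (among them RBCS1A and CA1) summed to 1439 to 3923 TPM in F1, 3983 to 11865 TPM in ddm1 and 4552 to 13190 TPM in Col-0. All 5 seed storage markers were at 0 in every library, and so were 3 of 5 root markers, PHT1;1, EXP7 and RHD6. The root list summed to 155 to 297 counts in F1, 221 to 380 in ddm1 and 291 to 425 in Col-0, all from SCR and SHR. Pollen markers summed to 4 to 8 counts in F1, 4 to 32 in ddm1 and 8 to 266 in Col-0. Flower markers summed to 14 to 61 counts in F1, 35 to 155 in ddm1 and 15 to 63 in Col-0. The part of the lower leaf marker levels of F1 in the values below was not tested. A count of 0 in a Col-0 library allows up to 3 counts, or 0.139 to 0.157 CPM (counts scaled to a common library total). These limits cover counting error only, because the reads carried no molecular identifiers.

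Of the 259 loci, 232 (89.6%) were TE genes, meaning open reading frames of transposable elements that the annotation lists as pseudogenes, against 597 (90.7%) of the other 658 wild-type-silent loci. Among the 27 that were not TE genes, 17 were annotated as protein coding, 2 as noncoding RNA, 4 as transcribed pseudogenes and 3 as other pseudogenes, and 1 had no entry in RefSeq. The loci lay on all 5 chromosomes, with 37, 59, 50, 60 and 52 on chromosomes 1 to 5.

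CACTA elements made up the largest group with an assigned superfamily, and some sequences at CACTACA letters before such loci are printed here. Whether a match is the end of an element was not tested. The first 7 lines are from types found before members only, the next 4 from a type found before other silent loci only, and the last 2 from a type found before both. CACTA elements are DNA transposons that begin with the letters CACTA and move by a transposase. The nearest CACTACA on the sense strand within 3 kb before the annotated start was found for 24 of 48 CACTA members and for 29 of 53 other wild-type-silent CACTA loci. The 40 bases from that match are given 5′ to 3′ in TAIR10 coordinates, with the matched letters in capitals. They were read from the RefSeq TAIR10.1 genome, whose nuclear chromosomes have the same coordinates.
Member AT2G12250, chr2:4914849-4914888, minus strand: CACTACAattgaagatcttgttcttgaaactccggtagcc
Member AT1G36460, chr1:13738943-13738982, minus strand: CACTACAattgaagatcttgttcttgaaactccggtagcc
Member AT3G30396, chr3:12003518-12003557, plus strand: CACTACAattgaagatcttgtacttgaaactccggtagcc
Member AT4G07518, chr4:4325065-4325104, plus strand: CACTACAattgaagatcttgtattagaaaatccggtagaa
Member AT3G33166, chr3:13984002-13984041, minus strand: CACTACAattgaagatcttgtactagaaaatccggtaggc
Member AT4G06196, chr4:3038447-3038486, minus strand: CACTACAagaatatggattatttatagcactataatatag
Member AT3G31920, chr3:12927657-12927696, minus strand: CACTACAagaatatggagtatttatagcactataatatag
Other silent locus AT1G35590, chr1:13131404-13131443, plus strand: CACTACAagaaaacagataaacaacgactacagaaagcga
Other silent locus AT5G45085, chr5:18202013-18202052, minus strand: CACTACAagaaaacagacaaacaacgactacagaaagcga
Other silent locus AT3G30680, chr3:12232710-12232749, minus strand: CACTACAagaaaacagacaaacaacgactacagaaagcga
Other silent locus AT1G36470, chr1:13743163-13743202, minus strand: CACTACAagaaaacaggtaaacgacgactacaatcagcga
Member AT1G42697, chr1:16059132-16059171, minus strand: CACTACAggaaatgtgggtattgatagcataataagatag
Other silent locus AT3G33151, chr3:13964218-13964257, minus strand: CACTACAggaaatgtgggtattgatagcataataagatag

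The sequence that began CACTACAattgaag stood before 7 loci, and all 7 were members. Their F1 to ddm1 ratios lay between 0.461 and 0.626, with a median of 0.573, and the sequence lay 650 to 1172 bases before the annotated start. Another sequence, CACTACAagaatat, stood before 5 loci, all of them members with ratios of 0.408 to 0.706 (median 0.414). In contrast, CACTACAagaaaac stood before 12 wild-type-silent loci, none of them members, at 149 to 647 bases before the start. Those 12 had ratios of 0 to 0.264 with a median of 0.0451. A further 3 types stood before loci on both sides of the threshold. CACTACAaaaaaag stood before 2 members and 3 other silent loci, and CACTACAacaaata before 1 of each. The same 40 bases stood before the member AT1G42697, with a ratio of 0.478, and the other silent locus AT3G33151, with a ratio of 0.334. The sequence types were sorted after the values were seen, copies of a type are alike in sequence, and 50-base reads of near-identical copies can be assigned to the wrong copy. The share of a locus's 50-base words found once in the nuclear genome was 25.8% to 96.8% (median 65.9%) for loci with CACTACAattgaag and 19% to 83.5% (median 42.6%) for those with CACTACAagaaaac.

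The levels behind these ratios differed as well. AT2G12250, with CACTACAattgaag, had 46.8, 32.7 and 50.2 TPM in F1, 82.7, 76.7 and 66.8 TPM in ddm1, and 0 in every Col-0 library. AT3G33166, whose 50-base words were 96.8% unique, had 12.9, 8.85 and 11.6 TPM in F1 and 20.7, 18.7 and 13.9 TPM in ddm1. In both loci every F1 library lay below every ddm1 library. AT1G35590, with CACTACAagaaaac and not a member, had 0.345, 2.70 and 1.15 TPM in F1 and 52.4, 55.7 and 62.6 TPM in ddm1. AT2G12250 and AT1G35590 were thus both abundant in ddm1, while their F1 ratios were 0.573 and 0.0245. Only 44.6% and 24.3% of their 50-base words were unique, so their estimates may include reads of similar copies.

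Over all 259 loci the median ratio was 0.544, with quartiles of 0.466 and 0.642. In single F1 libraries the median ratio was 0.537, 0.499 and 0.58, with a mean of 0.539 ± 0.041 (SD, n = 3). There were 102 members with a ratio of 0.4 to 0.5, 71 with 0.5 to 0.6, 65 with 0.6 to 0.8, 13 with 0.8 to 1, and 8 with 1 or more. The other wild-type-silent loci had a median of 0.139. The ratios of all 917 loci formed a continuous range with a median of 0.24, so the threshold divides a slope and not separate groups. Just inside it lay AT4G07530, AT3G30838 and AT1G38380, with ratios of 0.4, 0.402 and 0.406. Just outside lay AT2G10900, AT3G45775 and AT1G43840, each with a ratio of 0.398. AT1G43840 belongs to a family of 3 similar copies whose other members, AT2G13160 and AT2G34130, were inside the threshold with ratios of 0.552 and 0.488.

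**Figure D1:**
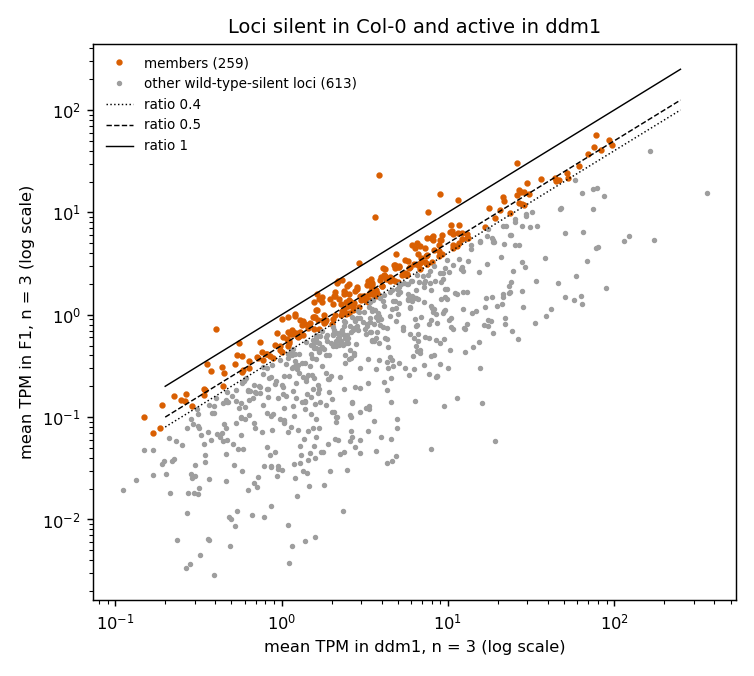
Mean TPM in F1 (vertical, log scale, n = 3) against mean TPM in ddm1 (horizontal, log scale, n = 3) for each wild-type-silent locus, with the 259 members in orange and 613 other loci in grey. Lines mark ratios of 0.4, 0.5 and 1, and 45 other loci with a mean of 0 in F1 are not shown. The members form the upper edge of a continuous cloud, and AT4G04170 stands highest above the line of equal levels.

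Every F1 library was below every ddm1 library in 140 members, every F1 library was above in 1, and the libraries overlapped in 118. Over all 18216 loci tested in the fits described further on, 23.6% were lower without overlap and 13.9% were higher without overlap. Over all 917 wild-type-silent loci the shares were 83.5% and 0.109%. Since the rule used this contrast, these counts describe only how the chosen loci were spread. TPM totals include organelle loci, which took a mean of 71.6% of counts in F1 and 67.2% in ddm1. With TPM over nuclear loci only, the rule chose 292 loci at a median ratio of 0.569. The counts without overlap were not repeated on that scale. Of the members, 121 had a ratio of 0.4 or more in each F1 library, 112 in exactly 2 of them and 26 in exactly 1. A total of 223 members had 10 or more counts in every F1 library, and 6 had at least 1 F1 library at 0.

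The members' summed share of nuclear counts was 0.843%, 0.794% and 0.834% in F1 (mean 0.824% ± 0.0261, SD, n = 3), 1.19%, 1.36% and 1.03% in ddm1 (1.19% ± 0.165, n = 3) and 0 in Col-0. The other wild-type-silent loci took 0.418%, 0.4% and 0.614% in F1 and 2.88%, 2.88% and 3.16% in ddm1. Members held 66.8%, 66.5% and 57.6% of all counts on wild-type-silent loci in F1, against 29.2%, 32% and 24.7% in ddm1. The direction of this difference follows from the rule, which took the loci with the highest F1 to ddm1 ratios. F1 library 3 was the F1 library with the most counts on the other silent loci. A mean of 1 TPM or more in F1 was reached by 176 members and 163 other silent loci, and a mean of 10 TPM or more by 31 members and 11 others. Fewer cells with a transcribed copy and less RNA per cell cannot be told apart in these bulk leaf samples.

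The F1 libraries also differed among themselves. Among loci with a mean of 30 or more estimated counts in F1, the median coefficient of variation over F1 libraries was 26.4% for 204 members and 49.5% for 210 other silent loci. Over ddm1 libraries the same loci had medians of 22% and 21.4%. The 2 sets were not matched for F1 level, which the rule used. The median F1 mean TPM was 1.67 over all members and 0.326 over all other silent loci. The part of level in the difference in F1 variation was not tested. The largest variation among these members was in AT4G06660, AT5G32471 and AT2G06904. AT4G06660, a MULE locus, had 1.52, 0.0582 and 0.178 TPM in F1 and 1.59, 0.73 and 0.933 TPM in ddm1. Its F1 mean rested on library 1, whereas AT5G32471 had 0.453, 0.227 and 2.94 TPM in F1 and 2.5, 2.85 and 2.13 TPM in ddm1, with library 3 highest. AT2G06904, annotated as a nucleic acid and zinc ion binding protein, had 8.69, 3.35 and 0.491 TPM in F1 and 5.97, 9.96 and 10.6 TPM in ddm1. Without its highest F1 library, the ratio was 0.109 for AT4G06660, 0.136 for AT5G32471 and 0.217 for AT2G06904, below the threshold in all 3. Over all members, F1 library 1 was the highest F1 library in 86, library 2 in 69 and library 3 in 104.

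Among the 12 members with the highest mean TPM in F1, the noncoding RNA AT2G15555 came first. It is annotated on the minus strand of chromosome 2 at 6785904 to 6786976 (TAIR10). It had 62.3, 50.3 and 58.8 TPM in F1, 50.9, 79.1 and 102 TPM in ddm1, and 0 in Col-0. Its F1 and ddm1 libraries overlapped, and its ratio was 0.739, or 0.632 without ddm1 library 1 and 0.879 without ddm1 library 3. AT2G13160 and AT2G34130 (named MEE19), copies of a family with no assigned superfamily, also stood among the 12. AT2G13160 had 46, 30.3 and 76.8 TPM in F1 against 84.1, 104 and 89 TPM in ddm1, and 23.5% of its 50-base words were unique. AT2G34130 had 38.1, 30.7 and 52.5 TPM in F1 against 89, 90.3 and 69.4 TPM in ddm1. In both copies every F1 library was below every ddm1 library and F1 library 3 was the highest of the F1 libraries.

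AT3G42179 had 53.1, 50.1 and 32.7 TPM in F1 against 96.6, 101 and 92.5 TPM in ddm1, with 95.9% of its 50-base words unique and a ratio of 0.468. AT1G36190 had 32.7, 38.2 and 40.4 TPM in F1 against 47.8, 104 and 57.3 TPM in ddm1. Its ddm1 library 2 stood far above the others, so its ratio of 0.531 became 0.706 without that library. AT2G11110 had 24.6, 16.4 and 51.2 TPM in F1 and 16.2, 14.7 and 47.1 TPM in ddm1. Library 3 was the highest in both groups, and its ratio of 1.18 was 1.99 without ddm1 library 3 and 0.788 without F1 library 3. The remaining CACTA loci among the 12 were AT1G36460, AT3G30396, AT4G03910 and AT1G40125. Their F1 levels spanned 16.2 to 33.5 TPM and their ddm1 levels 32.5 to 83.3 TPM, without overlap of the groups within any of the 4.

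**Figure D2:**
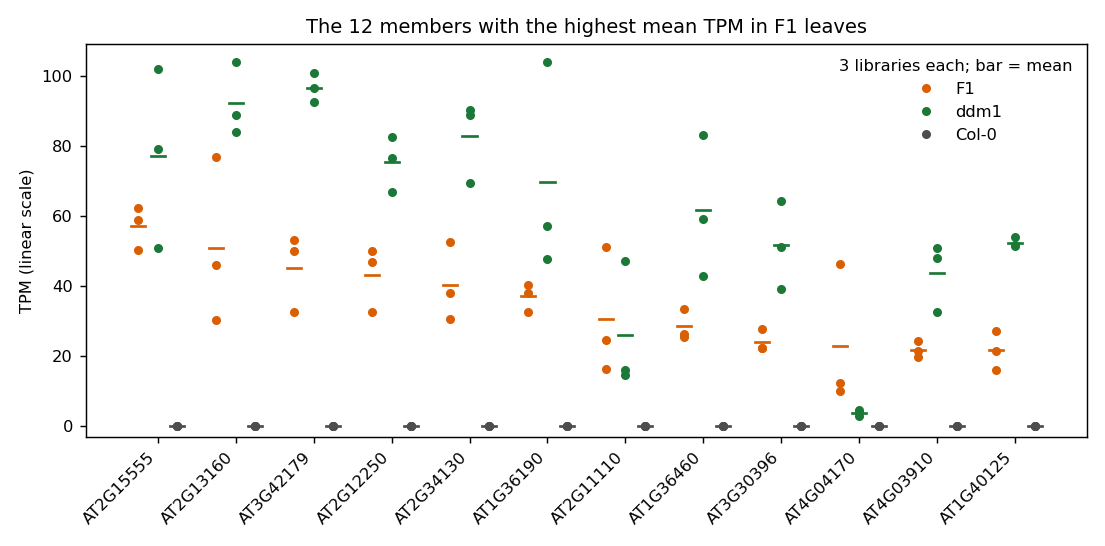
TPM (linear scale) of the 12 members with the highest mean TPM in F1, with 1 point per library and a bar for the mean of 3 libraries, for F1 (orange), ddm1 (green) and Col-0 (grey). Most loci have F1 points below the ddm1 points, AT2G15555 and AT2G11110 overlap, AT4G04170 has its F1 points above, and all Col-0 points are at 0.

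AT4G04170 was the 1 member whose F1 libraries all lay above its ddm1 libraries. It had 12.4, 46.3 and 10.2 TPM in F1 against 2.98, 4.68 and 3.95 TPM in ddm1, a ratio of 5.93. These values rested on 1110, 4514 and 975 estimated counts in F1 and 300, 370 and 281 in ddm1. Library 2 set most of the F1 mean, and the ratio without it was 2.92, but the other F1 libraries also lay above the highest ddm1 library. The locus is a TE gene on the plus strand of chromosome 4 at 2013697 to 2018328 and 92.4% of its 50-base words were unique. The next highest ratio, 2.49, belonged to AT5G29560, a gene of the caleosin family of calcium-binding proteins that coat lipid droplets. It had 8.01, 15.3 and 3.76 TPM in F1 against 2.29, 1.98 and 6.61 TPM in ddm1, and the groups overlapped through ddm1 library 3. Its ratio was 4.23 without ddm1 library 3 and 1.62 without F1 library 2. AT2G06670 had 26.2, 12.1 and 7.41 TPM in F1 against 14.1, 5.98 and 6.97 TPM in ddm1, so that library 1 was highest in both groups. Its ratio was 1.69, and 1.08 without F1 library 1. The Gypsy loci AT2G13170 and AT3G30827 had ratios of 1.8 and 1.32. AT2G13170 had 0.363, 1.52 and 0.307 TPM in F1 against 0.519, 0.288 and 0.412 TPM in ddm1, so that F1 library 2 alone was high and the ratio without it was 0.825.

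The choice of members was repeated with 1 F1 library held out, and the ratio was then read in the library that had not taken part. With library 1 held out, 269 loci were chosen at a median ratio of 0.536, and library 1 gave them a median of 0.492. Library 2 gave 0.446 for the 263 loci chosen without it at 0.553, and library 3 gave 0.562 for the 238 chosen without it at 0.538. The held-out ratio was 0.4 or more in 70.3%, 59.3% and 73.9% of the chosen loci. Among the loci not chosen it was 0.4 or more in 11%, 13% and 18.6%. The held-out medians averaged 0.5 ± 0.0584 (SD, n = 3), and the 3 choices shared the same ddm1 libraries. Each held-out ratio was divided by the same ddm1 mean that set the choice, so it is not free of the rule's values. Holding out Col-0 libraries in the same way, 15, 14 and 21 of 274, 273 and 280 chosen loci had counts in the held-out library 1, 2 and 3. The highest of those counts were 5, 8 and 13. Most loci that were silent in 2 Col-0 libraries were thus at 0 in the other as well.

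**Figure D3:**
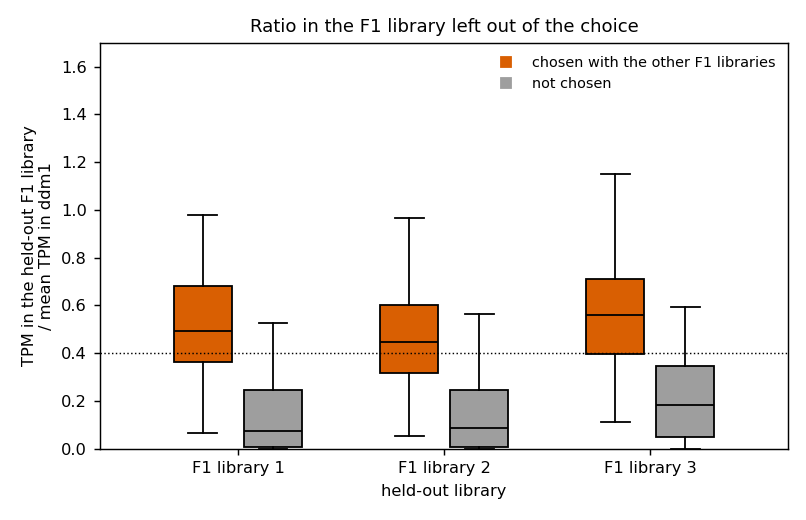
Ratio of TPM in the held-out F1 library to mean TPM in ddm1 (linear scale) for loci chosen with the other F1 libraries (orange) and for wild-type-silent loci not chosen (grey). Boxes give the quartiles and median, whiskers the 5th and 95th percentiles, and the dotted line the ratio of 0.4. The chosen loci have medians of 0.492, 0.446 and 0.562, above those of the loci not chosen in each library. The ddm1 mean is the one that also set the choice.

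Among superfamilies with 40 or more wild-type-silent loci, CACTA loci were members most often, at 48 of 101 (47.5%). LINE elements, retrotransposons without long terminal repeats, contributed 21 of 67 (31.3%), and MULE DNA transposons 12 of 43 (27.9%). Of the retrotransposons with long terminal repeats, Copia loci contributed 21 of 68 (30.9%) and Gypsy loci 23 of 162 (14.2%). Loci with no assigned superfamily contributed 132 of 471 (28%). SADHU retrotransposons had 1 member of 2 silent loci and Helitrons 0 of 1. Median ratios over all wild-type-silent loci of these superfamilies were 0.356 for CACTA, 0.329 for MULE, 0.325 for Copia, 0.298 for LINE and 0.111 for Gypsy. These shares describe loci of 9 libraries and have no test, since similar copies share reads and are not independent.

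The CACTA and Gypsy shares were also read in loci where 90% or more of the 50-base words were unique. There 10 of 18 CACTA loci (55.6%) and 11 of 53 Gypsy loci (20.8%) were members, against 140 of 400 (35%) over all such loci. Across alternative thresholds, scalings and left-out libraries, CACTA shares lay between 42.6% and 50.5% and Gypsy shares between 12.3% and 17.9%. Among Gypsy members, AT4G07485 had 18.2, 15.9 and 27.7 TPM in F1 against 45.3, 49.2 and 45.1 TPM in ddm1. Among LINE members, AT5G32616 had 4.33, 2.97 and 4.06 TPM in F1 against 10.2, 9.43 and 6.80 TPM in ddm1. The Copia locus AT5G34965 had 4.09, 3.2 and 3.43 TPM in F1 against 7.88, 7.99 and 4.95 TPM in ddm1. In each of these 3, named after their values were seen as examples at high F1 TPM, the F1 libraries lay below the ddm1 libraries.

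**Figure D4:**
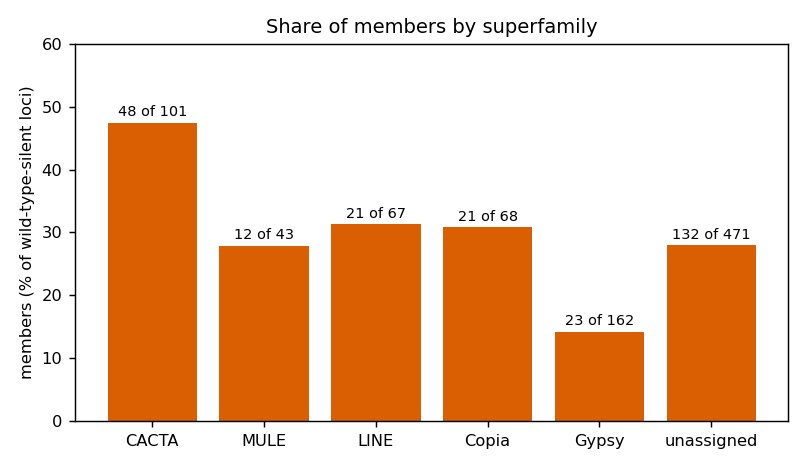
Members as a percent of all wild-type-silent loci (vertical, from 0) by superfamily, with the counts above each bar, for superfamilies with 40 or more such loci. CACTA stands highest at 47.5% and Gypsy lowest at 14.2%.

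Copies of larger families were seldom members. Families were loci with 80% or more identity over 80% or more of the longer locus, and 13 of them held 5 or more wild-type-silent loci. Of the 105 loci in these families, 4 (3.81%) were members, and 10 of the families, with 76 loci, held none. Among them were the CACTA families of AT1G36470, with 12 loci and a median ratio of 0.0551, and AT1G35590, with 9 loci and a median of 0.084. The Gypsy family of AT1G38194 had 17 loci with a median ratio of 0.111, and its 2 members were AT3G30827 and AT4G06511. Small families could be members throughout, as were all 3 copies of the CACTA family of AT2G06800 and all 3 copies of the families of AT1G38176, AT1G49090 and AT4G07500. Loci without a similar copy among the silent loci were members in 32.8% of 597 cases, and loci in families of any size in 19.5% of 318.

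The share of members changed with how much of a locus was unique. Members made up 17.6% of the 165 loci with up to 50% unique 50-base words, 25.4% of the 350 with 50% to 90%, 31.3% of the 246 above 90%, and 40.9% of the 154 in which all words were unique. The median was 93.1% in members, 83.6% in other silent loci and 91.9% in all 3881 TE genes. Reads of similar copies that are silent in F1 and active in ddm1 can enter either copy's estimate, and the part of this in the ratios was not tested. With only the members above 90%, the median ratio was 0.549.

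Members lay somewhat farther from the middle of the pericentromere, the TE-dense heterochromatin around the centromere. Their median distance to the centre of the 1 Mb stretch richest in TE genes was 1.43 Mb, against 0.988 Mb for other silent loci and 1.32 Mb for all TE genes. Members were 20.7% of the silent loci within 0.5 Mb, 34.3% of those at 2 to 2.5 Mb and 43% of the 79 at 2.5 to 3.5 Mb. Beyond 3.5 Mb the shares were 24% of 25 and 23% of 61. Within 2.5 Mb lay 79.1% of members and 83.1% of other silent loci. The length of the loci was similar, with medians of 2372 and 2597 bases.

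**Figure D5:**
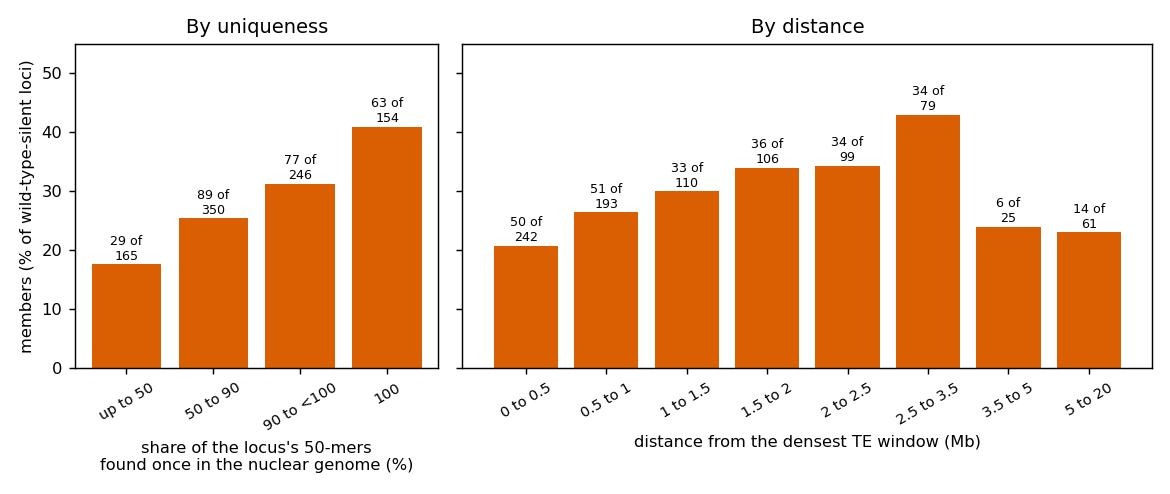
Members as a percent of wild-type-silent loci (vertical, from 0) by the share of the locus's 50-base words found once in the nuclear genome (left) and by the distance from the centre of the 1 Mb stretch richest in TE genes (right). The share is 17.6% in the least unique loci and 40.9% in wholly unique ones, and it is highest, 43%, at 2.5 to 3.5 Mb.

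Some members followed each other along the chromosome. There were 24 runs of members with no other annotated locus between them, holding 56 members, and the loci of 16 runs shared a strand. Runs were not counted for the other wild-type-silent loci, so whether they are particular to members was not tested. The longest runs had 4 members, from AT2G16670 to AT2G16690, from AT3G30396 to AT3G30410 and from AT3G30820 to AT3G30830. In the first, on chromosome 2 at 7224341 to 7237600, a Copia locus was followed by 3 LINE loci on the same strand. AT2G16690, the most abundant of them, had 3.2, 3.53 and 2.57 TPM in F1 against 7.25, 7.35 and 7.84 TPM in ddm1. AT2G16680 had 1.7, 2.12 and 1.36 TPM in F1 against 3.76, 3.27 and 3.31 TPM in ddm1. Levels within a run could differ widely, as between AT3G30396 with 22.3 to 27.7 TPM in F1 and AT3G30405 with 0.514 to 0.852 TPM. The run on chromosome 1 from AT1G40105 to AT1G40109 consisted of 3 CACTA loci on 1 strand.

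The members that were not TE genes included few with a named function. AT1G36240, a ribosomal protein of the L7Ae/L30e/S12e family, had 9.94, 11.7 and 14.6 TPM in F1 against 14.4, 38 and 31.4 TPM in ddm1. Its ratio of 0.432 fell below the threshold, to 0.348, without ddm1 library 1. AT3G44070, a glycosyl hydrolase of family 35, whose enzymes cleave beta-galactosides, had 2.97, 2.38 and 4.15 TPM in F1 against 2.38, 2.59 and 3.75 TPM in ddm1, with overlap and a ratio of 1.09. AT4G03950, of the nucleotide/sugar transporter family, had 2.11, 4.99 and 2.14 TPM in F1 against 6.02, 4.09 and 4.25 TPM in ddm1. Its F1 library 2 lay within the ddm1 range. AT3G31910, which encodes a protein of the Ulp1 protease family (proteases that process the modifier SUMO), had 2.41, 1.34 and 1.17 TPM in F1 against 4.27, 3.5 and 3.49 TPM in ddm1. AT2G05642, an OB-fold nucleic acid binding protein, had 2.47, 0.561 and 3.63 TPM in F1 against 4.9, 2.73 and 2.75 TPM in ddm1. F1 library 2 was its lowest library. The noncoding RNA AT2G06562 had 3.18, 4.12 and 2.49 TPM in F1 against 5.84, 8.49 and 7.59 TPM in ddm1, without overlap. The others of the 15 with the highest F1 level were AT5G28800, AT4G07526, AT2G06904, AT3G42436, AT3G30820, AT3G31908 and AT3G30867, with mean ratios of 0.416 to 0.936. AT3G42436 had a ratio of 0.329, below the threshold, without ddm1 library 3.

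Windows from 250 bases before to 50 bases after the annotated starts were searched on both strands for 8 short motifs, chosen after the data had been seen. The motif AACCCTA, the core of the telo box found in promoters of many plant genes for ribosomal proteins, was in 58 of 258 member windows (22.5%). It was in 9.13% of the windows of 657 other silent loci, 10.3% of those of all TE genes and 9.01% of those of all 32835 nuclear loci. In CACTA loci it was in 31.2% of member windows and 5.66% of other silent windows, and in unassigned loci in 26.5% and 8.85%. It was in 0 of 21 LINE member windows, against 15.2% of other silent LINE windows, and Copia windows had 9.52% and 10.6%. Among loci in no family by the thresholds above the shares were 19.9% and 11.2%, so the difference was larger among loci in families, at 30.6% and 5.86%. The TATA box letters TATAAA were in 19.4% of member windows, 25.3% of other silent windows and 50% of all nuclear windows, and TATATAA in 10.5%, 7.61% and 21.8%. CCAAT was in 48.1%, 47.5% and 50.7%, GATAAG in 16.3%, 19.2% and 15%, CACGTG in 2.33%, 1.37% and 6.9%, CACTACA in 2.33%, 1.22% and 2.69%, and TGGTATC, which begins many retrotransposon primer binding sites, in 8.14%, 7.76% and 2.75%. A match describes the letters only and is not evidence of a bound factor. Annotated starts were not shown to be transcription starts. In AT3G30396, AT4G03910 and AT1G36190, printed below, the annotated start falls on ATG, the letters of a start codon. Windows of TE genes and of other nuclear loci may thus cover unlike regions. Their shares do not show whether a promoter has or lacks a motif.

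Windows of 4 abundant members with AACCCTA are shown because several copies of the motif occurred in each. They run 5′ to 3′ on the strand of the locus, were read from the RefSeq TAIR10.1 genome, and have AACCCTA, or its reverse complement TAGGGTT, in capitals.
AT3G30396, chr3:12004337-12004636, plus strand: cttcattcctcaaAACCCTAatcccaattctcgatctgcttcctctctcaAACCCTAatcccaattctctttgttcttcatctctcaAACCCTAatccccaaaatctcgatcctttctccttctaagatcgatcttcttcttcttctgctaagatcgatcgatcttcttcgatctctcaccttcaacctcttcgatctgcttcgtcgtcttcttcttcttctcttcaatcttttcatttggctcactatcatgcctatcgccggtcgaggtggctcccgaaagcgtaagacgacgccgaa
AT4G03910, chr4:1843201-1843500, plus strand: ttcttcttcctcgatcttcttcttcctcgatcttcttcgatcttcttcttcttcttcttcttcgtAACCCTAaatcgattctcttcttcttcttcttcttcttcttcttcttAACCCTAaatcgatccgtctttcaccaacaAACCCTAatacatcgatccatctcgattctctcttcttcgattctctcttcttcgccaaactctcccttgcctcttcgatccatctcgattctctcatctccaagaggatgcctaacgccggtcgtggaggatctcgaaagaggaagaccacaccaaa
AT1G36190, chr1:13576036-13576335, minus strand: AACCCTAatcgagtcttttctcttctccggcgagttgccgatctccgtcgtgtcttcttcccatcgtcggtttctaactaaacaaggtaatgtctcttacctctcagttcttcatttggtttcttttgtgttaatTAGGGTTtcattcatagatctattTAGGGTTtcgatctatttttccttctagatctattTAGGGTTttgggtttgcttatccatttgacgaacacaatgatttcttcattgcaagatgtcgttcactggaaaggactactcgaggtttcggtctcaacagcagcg
AT4G04170, chr4:2013447-2013746, plus strand: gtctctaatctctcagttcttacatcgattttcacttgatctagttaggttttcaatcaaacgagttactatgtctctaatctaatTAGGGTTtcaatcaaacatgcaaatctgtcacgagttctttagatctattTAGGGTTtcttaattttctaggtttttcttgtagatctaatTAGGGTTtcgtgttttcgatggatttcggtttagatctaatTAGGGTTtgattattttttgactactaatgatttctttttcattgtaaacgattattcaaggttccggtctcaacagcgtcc

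AT3G30396 and AT4G03910, both CACTA loci with F1 means of 24.2 and 21.9 TPM, carried the motif in the sense direction. AT1G36190 and AT4G04170 carried it mostly in the reverse direction, and the ends of both windows were alike in their letters. Their ratios were 0.531, near the median of the members, and 5.93, the highest.

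The members were chosen by their counts and TPM values in all 3 groups and were not tested. Genes beside them were not chosen by the rule as members and were tested. Some of these genes were wild-type-silent loci that met the rule's count thresholds. For those loci the calls are a description only, because the thresholds fixed their Col-0 counts at 0. Within 5 kb of a member lay 205 non-TE loci, of which 77 passed the filter on low counts. In F1 against Col-0, 16 of the 77 (20.8%) were higher and 3 (3.9%) lower with edgeR's quasi-likelihood test, against 9.42% and 10.3% of all tested non-TE loci and 13.5% and 9.66% of all tested loci. In ddm1 against Col-0, 7 (9.09%) were higher and 1 (1.3%) lower, against 1.09% and 0.5% of tested non-TE loci and 6.87% and 0.5% of all tested loci. The median log2 fold change of the 77 was 0.19 in F1 and -0.04 in ddm1, beside 0.06 and -0.00 for tested non-TE loci. The 2 contrasts shared their Col-0 libraries. Of the 7 loci higher in ddm1, 4 were themselves wild-type-silent loci below the ratio threshold, and without silent neighbours 3 were called. The 4 were AT5G33251, AT5G32613, AT2G10260 and AT5G28824, and the rule's count thresholds set the direction of their ddm1 calls. AT2G07750, AT4G03760 and AT2G06570 had at most 1.05 counts in a Col-0 library and passed the filter through the groups where they were high. AT5G33251, AT5G32613 and AT2G10260 were also among the 16 higher in F1. With Col-0 counts of 0 required by the rule, their F1 calls could only be higher. AT2G07750, AT4G03760 and AT2G06570 were among the 16 as well. The share of 20.8% includes all of these loci, and a share without them is not given here. The F1 count of 16 was 7 without F1 library 1 or Col-0 library 1 or 2, 9 without ddm1 library 2, and 10 without F1 library 2 or Col-0 library 3. The ddm1 count was 11 without ddm1 library 3.

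The neighbour with the smallest adjusted p was AT5G33251, 4171 bases from AT5G33250. It had 6.94, 3.55 and 8.19 CPM in F1, 29.1, 21.1 and 40.7 CPM in ddm1 and 0 in Col-0. In F1 it was at least 136-fold above a floor of 3 counts over the Col-0 group, and in ddm1 at least 661-fold. The rule's Col-0 count of 0 set both directions, so its calls are a description only. AT5G32613, a zinc knuckle gene 276 bases from the LINE member AT5G32616, had 3.87, 2.12 and 1.67 CPM in F1, 7.09, 5.77 and 5.33 CPM in ddm1 and 0 in Col-0. AT2G10260, annotated as a Ulp1 protease family gene, was at least 48.8-fold above the floor in F1 and at least 293-fold in ddm1. Both directions were again set by the rule's thresholds. AT2G07750, a DEAD-box RNA helicase gene, had 0.983, 0.917 and 1.11 CPM in F1, 2.73, 2.63 and 4.59 CPM in ddm1 and 0 to 0.0464 CPM in Col-0. In these loci F1 libraries lay between those of ddm1 and Col-0. For AT5G33251, AT5G32613 and AT2G10260 this order of the group means follows from the rule's thresholds. AT4G03760 was higher in F1 and ddm1 but varied, with 1.1, 14.6 and 8.88 CPM in F1, 2.89, 26.2 and 3.37 CPM in ddm1 and 0 to 0.0499 CPM in Col-0. Its F1 call (edgeR, adjusted p = 0.00785) held with any library left out, and its ddm1 call (adjusted p = 0.00914) was lost without Col-0 library 1 or 3. AT5G28824, a noncoding RNA, had 2, 0 and 0 counts in F1, 31, 22 and 13 counts in ddm1 and 0 in Col-0. It was called in ddm1, in the direction that the rule's thresholds set. AT2G06570 had 3, 7 and 1 counts in F1, 17.7, 16.7 and 9 counts in ddm1 and 0 in Col-0, and was called in both F1 (edgeR, adjusted p = 0.0415) and ddm1 (adjusted p = 0.0159). The ddm1 calls of both were lost without ddm1 library 1 or 2.

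Of the other called neighbours, 1 was called in both contrasts and the rest in F1 only, and whether the 2 effects differ was not tested. AT2G15960, a stress-induced protein gene, had 59.8, 61.2 and 26 CPM in F1, 5.16, 8.11 and 5.6 CPM in ddm1 and 6.14, 3.76 and 6.17 CPM in Col-0. Its log2 fold change in F1 was 3.19 (SE 0.38, edgeR, adjusted p = 0.000432). ERD5 (AT3G30775), which encodes proline dehydrogenase, had 131, 69.2 and 36.6 CPM in F1, 37.8, 46.2 and 11.9 CPM in ddm1 and 8.44, 9.37 and 20.4 CPM in Col-0. Its call in F1 (log2 fold change 2.63, SE 0.62, edgeR, adjusted p = 0.0161) was lost without F1 library 1 or Col-0 library 1 or 2. CH1 (AT1G44446), chlorophyllide a oxygenase, which makes chlorophyll b, fell by 2.91 on the log2 scale in F1 (SE 0.53, edgeR, adjusted p = 0.00477). It had 12.8, 13.8 and 19.7 CPM in F1, 58.5, 68.2 and 200 CPM in ddm1 and 111, 168 and 71 CPM in Col-0. AT4G06536, a SPRY domain gene, had 1, 4 and 0 counts in F1, 5, 2 and 1 counts in ddm1 and 32, 47 and 48 counts in Col-0. It was lower in both F1 (edgeR, log2 fold change -4.31, SE 0.87, adjusted p = 0.00757) and ddm1 (-3.76, SE 0.82, adjusted p = 0.0188). The ddm1 call was lost when any ddm1 or Col-0 library was left out. AT5G39790, a PROTEIN TARGETING TO STARCH gene, had 0.231, 0.344 and 0.694 CPM in F1, 1.68, 1.37 and 2.29 CPM in ddm1 and 1.4, 2.04 and 1.89 CPM in Col-0. It was lower in F1 (edgeR, log2 fold change -2.03, SE 0.49, adjusted p = 0.0165). Without F1 library 1 or 2 it was not called.

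Genes that act in transposon silencing were tested in the same fits. Of 31 listed genes for DNA methylation, small RNA silencing and heterochromatin, 28 could be tested. In F1, 2 (7.14%) were higher and 1 (3.57%) lower, against 9.42% and 10.3% of tested non-TE loci and 13.5% and 9.66% of all tested loci. The 2 were the linker histone genes H1.1 and H1.2, whose proteins bind nucleosomes and compact heterochromatin. H1.1 had 41.1, 41.5 and 26.7 CPM in F1, 9.69, 9.42 and 8.44 CPM in ddm1 and 8.19, 9.88 and 10.3 CPM in Col-0 (log2 fold change in F1 1.94, SE 0.22, edgeR, adjusted p = 0.000302). H1.2 had 55.7, 53.1 and 37.8 CPM in F1, 15, 14.2 and 7.9 CPM in ddm1 and 10.7, 15.8 and 14.1 CPM in Col-0 (1.85, SE 0.29, edgeR, adjusted p = 0.00201). CMT3, the methyltransferase of CHG sites, had 0.231, 0.802 and 0.463 CPM in F1, 1.64, 2.4 and 4.52 CPM in ddm1 and 1.45, 5.75 and 1.89 CPM in Col-0. It fell by 2.59 on the log2 scale in F1 (SE 0.69, edgeR, adjusted p = 0.0259), a call lost without F1 library 1 or 3 or Col-0 library 2. In ddm1, edgeR and DESeq2 each called 0 of the 28, and 2 had an unadjusted edgeR p under 0.05. Over all tested non-TE loci, edgeR called 1.09% higher and 0.5% lower in ddm1, so few calls could arise among 28.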

How the data were processed

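RNA of leaves was measured in 9 libraries, grouped by the labels. The deposited tables hold estimated counts and TPM per locus, made by the authors with kallisto 0.46.0 on TAIR10 per the submitters' processing notes and the file headers. DESeq2 1.22.2, R 3.5.1, R 3.6.1, deepTools and STAR are also named there, without a stated use. The sources used here do not give kallisto's index source or its strand and fragment settings, so reads of overlapping, antisense or near-identical loci may be shared.

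Of 33602 loci, 32835 matched RefSeq TAIR10.1. For 99.8% of the 3881 TE genes the deposited length equalled a RefSeq exon sum. TE genes were loci listed as pseudogenes that have an mRNA and whose product is an uncharacterized protein, other than those noted as pseudogenes of a gene. Superfamilies came from tblastx (BLAST 2.17.0, E under 1e-10) to 415 seeds, 600 bases around a protein motif or a named element. When left out, 406 seeds were assigned, 405 of them to their own superfamily. The method assigns no hAT.

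Estimated counts were rounded and fitted for all 9 libraries with edgeR 4.0.16 (R 4.3.3, TMM, filterByExpr, robust quasi-likelihood F test, adjusted by Benjamini-Hochberg over 18216 loci, threshold 0.05), tested on simulated data first. CPM are counts scaled to 1e6 per library after TMM. SE was computed from the F statistic. Nuclear counts per library were 5212809 to 7574828 and set the precision. The labels call the replicates biological. The main fit did not pair libraries by replicate number, and a replicate block was an alternative. Correlations of same-numbered libraries' deviations were -0.425 to 0.202, and 2 of 9 passed 0.1. Those of differently numbered libraries were -0.257 to 0.439. Between F1 and ddm1 alone, same-numbered libraries had 0.0607, 0.201 and 0.202, and differently numbered ones -0.188 to 0.092. Whether libraries were handled together was not tested.

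The members, the motifs and the gene lists were chosen with earlier results of these data known. Named members were the 12 highest in F1 TPM, the 5 with the highest ratio and the 3 with the highest F1 variation (mean F1 counts of 30 or more), the 3 on either side of the threshold, the 15 highest that were not TE genes, and the longest runs. Called neighbours and silencing genes were named up to 10 by adjusted p. Alternatives were other scalings, thresholds, distances, tools, a replicate block and leaving out each library.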

Additional observations from a re-analysis of the deposited data

How the results depend on the processing

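The rule chose 214 to 301 loci under all alternatives, with median ratios of 0.522 to 0.574, so no count moved beyond 1.5 times and no median beyond the SD between F1 libraries. TPM over nuclear loci gave 292, TMM-scaled CPM 301, thresholds of 20 or 5 ddm1 counts 214 and 294, and Col-0 counts under 1 gave 263; leaving out libraries gave 238 to 280. All 259 members were among the loci chosen by nuclear TPM and by TMM-scaled CPM. With nuclear TPM the median ratio in held-out F1 library 1 was 0.591, against 0.492. Counts of called neighbours moved most. For F1 higher (16), the replicate block gave 7, 2 kb gave 5, 10 kb gave 30, and leaving out libraries gave 7 to 19. For F1 lower (3), DESeq2 gave 5, 2 kb gave 0, 10 kb gave 15, and leaving out libraries gave 2 to 6. For ddm1 higher (7), DESeq2 gave 12, 2 kb gave 3, 10 kb gave 16, leaving out silent neighbours (an alternative added after seeing the data) gave 3, and leaving out libraries gave 5 to 11. For ddm1 lower (1), the replicate block and 2 kb gave 0, 10 kb gave 3, and leaving out libraries gave 0 to 1. Silencing genes lower in F1 (1) numbered 3 with DESeq2, 2 without a filter on low counts, and 0 to 4 with libraries left out. The block changed no count of silencing genes, but the calls of AT3G30775 in F1 and of AT5G28824, AT2G06570 and AT4G06536 in ddm1 were lost under it. Fewer neighbours at 2 kb and more at 10 kb follow from the distance; the cause of the other changes was not tested. Calls of single genes were lost in 20 cases with a library left out. Estimates of near-identical copies limit single-locus ratios, and so do low counts: 36 members had an F1 library under 10 counts.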
